A study of Homo sapiens with 20 samples.

Results

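The regulators followed here were PRDM1, IRF4, XBP1, POU2AF1, PAX5, BCL6, BACH2, EBF1, SPIB and IRF8, a set of transcription factor genes that hold a cell of the B lineage in its B-cell or its plasma cell state. They were taken by name, as 10 of the 18305 genes in the deposited table, by a rule that uses no measured value, although the set was proposed with earlier results of these data known. RNA was sequenced from 4 human cell lines, namely AMO1, L363 and RPMI-8226, which are multiple myeloma lines, and ARH-77, a B-lymphoblastoid line. Wild-type (WT) cells of each line were set beside bortezomib-resistant (BtzR) cells of each line and carfilzomib-resistant (CfzR) cells labelled AMO1 and L363, which makes 10 groups with 2 biological replicates in each and 20 libraries in all. Bortezomib and carfilzomib are proteasome inhibitors. The resistant cells had been evolved in vitro and were kept in 90 nM of their drug, the WT cells were not, and every cell was grown in RPMI-1640 medium with serum, so that resistance and the presence of the drug cannot be told apart. Each line is 1 established culture, and each resistant state is 1 derivative of it.

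A B cell becomes a plasma cell when a pair of opposing gene programmes changes places. PAX5, EBF1, BCL6, BACH2, SPIB and IRF8 belong to the B-cell and germinal centre side and hold back secretion, whereas PRDM1 (Blimp-1), a repressor that silences PAX5 and the other B-cell regulators, and XBP1, which builds the secretory apparatus, belong to the plasma cell side. IRF4 is needed on the plasma cell side at high level and is a known dependency of myeloma cells, and POU2AF1 (OCA-B, also called BOB.1) is a coactivator that the octamer-binding factors POU2F1 and POU2F2 recruit to immunoglobulin and other lymphoid promoters.

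The values are FPKM, which scale the fragments of a gene by the length of its transcript and the size of the library, so levels of different genes can be set side by side per length. The FPKM of a library summed to between 457317 and 494850, and between 10455 and 11023 genes reached 1 FPKM. Read counts do not accompany these values, so the depth is unknown and no counting interval was computed. The labelled cell types were checked against their markers. The summed level of 6 plasma cell markers (SDC1, TNFRSF17, CD38, SLAMF7, MZB1, JCHAIN) lay between 1214 and 8342 FPKM in the libraries of the myeloma lines and between 122.0 and 169 FPKM in ARH-77, and that of 5 B-cell markers (MS4A1, CD22, CD79A, CD79B, CD72) between 4.99 and 54.1 FPKM in the former and between 435 and 658 FPKM in ARH-77. Single markers did not all follow the sums. SLAMF7 had a mean of 0.78 FPKM in RPMI-8226 WT and 0.34 FPKM in its BtzR cells, against 28.9 FPKM in ARH-77 WT. TNFRSF17 (6.395 FPKM) and CD38 (2.725 FPKM) in RPMI-8226 BtzR cells lay below ARH-77 WT (18.67 and 12.6 FPKM). CD79B was higher in AMO1 WT (51.9 FPKM) than in ARH-77 WT (36.3 FPKM), and CD72 in RPMI-8226 BtzR cells (9.31 against 4.885 FPKM). Markers of T cells, myeloid cells and NK cells summed to at most 12.8, 8.39 and 8.22 FPKM. The stromal and epithelial markers were near 0 except for EPCAM, which stood at 56.4 FPKM in RPMI-8226 WT and 63.1 FPKM in its BtzR cells. The libraries labelled AMO1 CfzR stood apart from their label, with a Pearson r of 0.986 to 0.992 across genes with the 6 L363 libraries and of 0.878 to 0.883 with the 4 other AMO1 libraries. They are therefore set against the WT cells of both lines and called the libraries labelled AMO1 CfzR.

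Promoter sequence was at hand in the RefSeq annotation of GRCh38.p14 for 9 of the 10 genes, in 13 windows of 250 bases before an annotated start. POU2AF1 had no entry. Of the windows with a match, 3 are shown, chosen after the matches were seen: that of XBP1 for an element of its own stress pathway, that of EBF1 for motifs of factors followed here, and that of SPIB for a TATA box near its start. They are printed 5′ to 3′ on the gene's strand, with the matched motif in capitals. XBP1 lies at chr22:28800570-28800819 (minus strand), and its capitals mark an ER stress response element, searched as CCAAT, any 9 bases, then CCACG. EBF1 lies at chr5:159097957-159098206 (minus strand), and its capitals mark 2 overlapping motifs, an ETS-IRF composite element (GGAA, any 2 bases, GAAA), the kind of site that PU.1 or SPIB shares with IRF4 or IRF8, and a PRDM1 core (AGNGAAAG). SPIB lies at chr19:50418688-50418937 (plus strand), and its capitals mark a TATA box (TATAAA).
XBP1: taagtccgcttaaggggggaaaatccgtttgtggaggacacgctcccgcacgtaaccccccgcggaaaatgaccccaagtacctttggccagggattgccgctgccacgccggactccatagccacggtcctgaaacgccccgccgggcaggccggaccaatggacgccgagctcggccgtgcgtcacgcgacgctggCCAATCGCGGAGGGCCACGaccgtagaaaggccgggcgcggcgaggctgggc
EBF1: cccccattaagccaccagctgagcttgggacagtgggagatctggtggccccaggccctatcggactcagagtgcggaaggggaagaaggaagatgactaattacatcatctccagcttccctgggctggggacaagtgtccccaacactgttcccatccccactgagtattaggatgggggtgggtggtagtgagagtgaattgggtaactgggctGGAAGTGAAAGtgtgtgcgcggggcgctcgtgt
SPIB: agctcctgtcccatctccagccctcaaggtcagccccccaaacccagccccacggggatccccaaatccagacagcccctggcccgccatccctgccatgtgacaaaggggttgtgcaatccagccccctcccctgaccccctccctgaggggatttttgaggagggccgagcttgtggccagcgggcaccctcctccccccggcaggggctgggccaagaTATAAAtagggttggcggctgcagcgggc
Counted back from the start, the element of XBP1 ran from base -52 to -34, the EBF1 motifs from -33 to -24 and from -30 to -23, and the TATA box of SPIB from -29 to -24. On either strand, the ER stress response element was found in 0.074% of the 35116 promoter windows searched, the composite element in 2.41%, the PRDM1 core in 6.57% and the TATA box in 10.7%. The TATA box also stood in the IRF4 window from -32 to -27 and in the PAX5 window from -238 to -233. An octamer (ATGCAAAT, in 1.63% of windows) and an interferon response element (GAAA, any 2 bases, GAAA, in 3.02%) were searched too, and these letters stood in none of the 13 windows. A match describes the sequence only.

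Parental cells of the myeloma lines were first compared with parental ARH-77, which sets plasma cells against B-lymphoblastoid cells. PRDM1 was at 22.5 and 30.2 FPKM in AMO1 WT, 34.4 and 34.2 FPKM in L363 WT and 11.3 and 12.7 FPKM in RPMI-8226 WT, against 0.83 and 1.67 FPKM in ARH-77 WT. Every myeloma WT library thus lay above both ARH-77 libraries. XBP1 was at 693 and 603 FPKM in L363 WT and 246 and 248 FPKM in RPMI-8226 WT, but at only 63.2 and 78.3 FPKM in AMO1 WT, which overlapped the 80.9 and 74.3 FPKM of ARH-77 WT. The high XBP1 of plasma cells was therefore seen in 2 of the 3 myeloma lines. The FPKM of a gene does not separate the spliced and unspliced forms of XBP1 RNA.

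IRF4 and POU2AF1 were high in both kinds of cell. IRF4 was at 134 and 177 FPKM in AMO1 WT, 204 and 206 FPKM in L363 WT, 60.7 and 66.1 FPKM in RPMI-8226 WT and 109 and 106 FPKM in ARH-77 WT, so that ARH-77 lay within the range of the myeloma lines. POU2AF1 was at 144 and 137 FPKM in AMO1 WT, 121 and 124 FPKM in L363 WT, 88.4 and 94.6 FPKM in RPMI-8226 WT and 90.9 and 141 FPKM in ARH-77 WT. The groups overlapped for both genes.

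Of the B-cell factors, PAX5, the identity factor of B cells, was at 45.4 and 33.6 FPKM in ARH-77 WT and at no more than 0.14 FPKM in any of the 16 libraries of the myeloma lines, 6 of which listed it at 0. EBF1, which opens the B-cell programme with PAX5, was at 1.42 FPKM in both ARH-77 WT libraries and at most at 0.09 FPKM in the myeloma lines. IRF8, a germinal centre factor, was at 101 and 80.7 FPKM in ARH-77 WT, at 12.04 and 13.5 FPKM in RPMI-8226 WT, at 1.38 and 1.59 FPKM in L363 WT and at 0.16 and 0.06 FPKM in AMO1 WT. SPIB, an ETS factor that opposes plasma cell differentiation, was at 37.8 and 26.7 FPKM in ARH-77 WT, 14.1 and 11.7 FPKM in AMO1 WT, 3.11 and 2.43 FPKM in L363 WT and 1.72 FPKM in both RPMI-8226 WT libraries. These genes were higher in ARH-77 in every library, but SPIB and IRF8 ran in opposite orders among the myeloma lines.

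BACH2 went against the division. BACH2, a repressor of PRDM1 in B cells, was at 1.03 and 1.01 FPKM in AMO1 WT, 1.99 and 2.34 FPKM in L363 WT and 0.77 and 1.18 FPKM in RPMI-8226 WT, but at 0.01 and 0.02 FPKM in ARH-77 WT. BCL6, the germinal centre repressor, stayed below a mean of 1 FPKM in every group. Its highest group means were 0.735 FPKM in ARH-77 WT (0.67 and 0.80 FPKM) and 0.69 FPKM in RPMI-8226 BtzR (0.33 and 1.05 FPKM), so it was not tested and 9 of the 10 genes were. Among WT libraries it was highest in ARH-77, as no myeloma WT library passed 0.43 FPKM, but it was at 0.02 and 0.14 FPKM in ARH-77 BtzR cells. The B-cell side in ARH-77 WT thus consisted of PAX5, IRF8 and SPIB at high levels and of EBF1 and BCL6 at low ones.

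**Figure D1:**
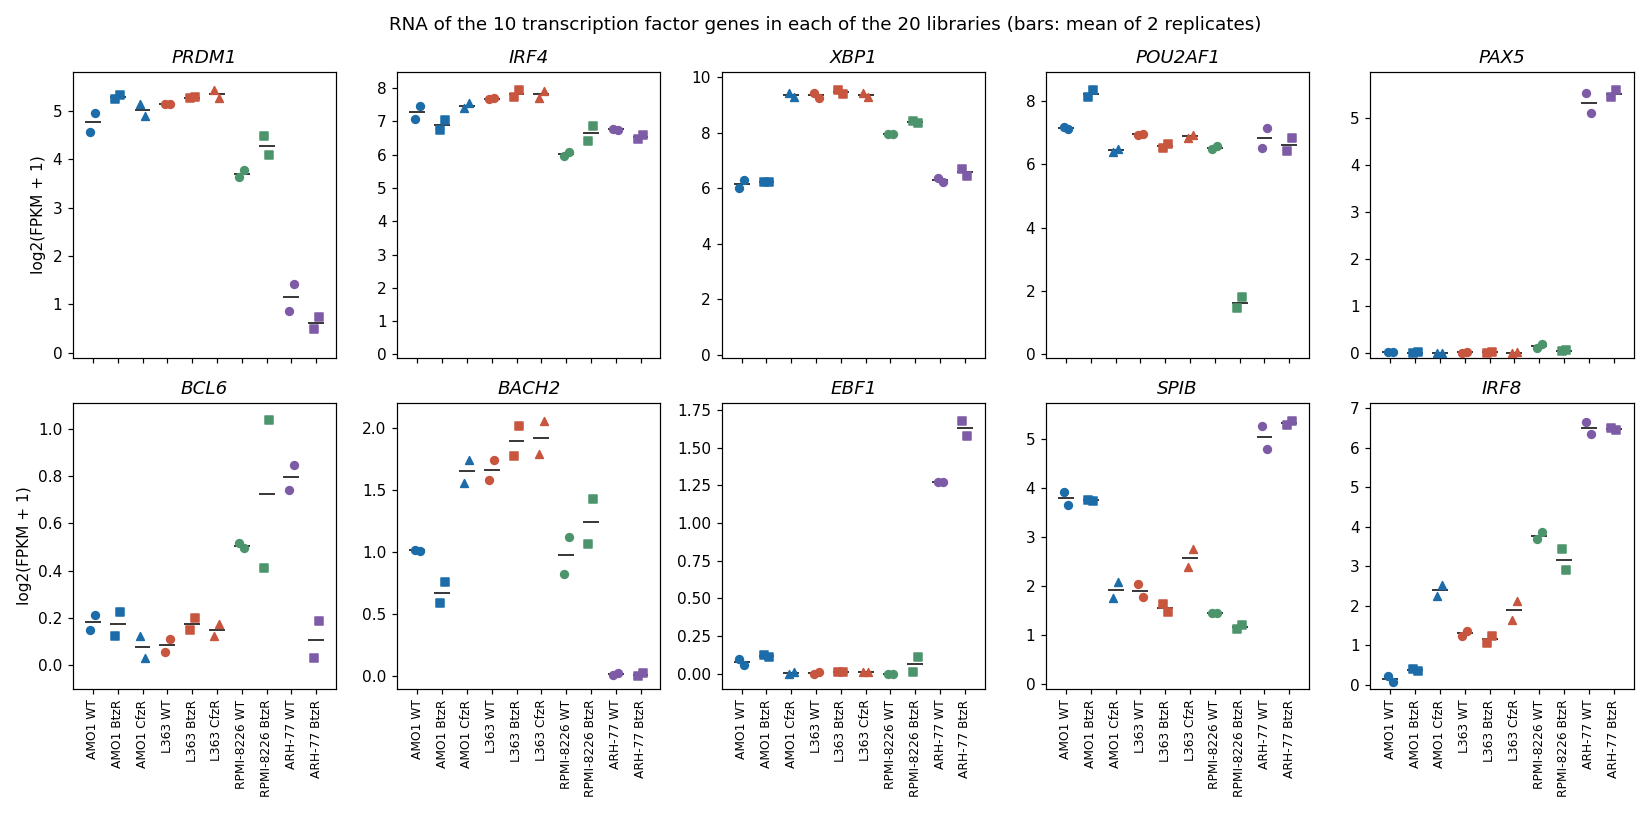
Level of each of the 10 genes as log2(FPKM + 1) in the 20 libraries, by group on the horizontal axis. Points are libraries (circles WT, squares BtzR, triangles CfzR) and short bars the mean of the 2 replicates, and each panel has its own scale. PAX5 and EBF1 stand above the floor only in ARH-77, PRDM1 is lowest there, POU2AF1 is low only in RPMI-8226 BtzR, and the libraries labelled AMO1 CfzR lie at the L363 level for XBP1.

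Differences were tested with limma on log2(FPKM + 1) for the 13089 genes with a mean of at least 1 FPKM in some group. Calls needed an adjusted p (Benjamini-Hochberg, over those genes) under 0.05 together with a log2-fold change of 1 or more in either direction. An exact permutation test of 2 libraries against 2 was not used, since its two-sided p is never below 0.33. In the mean of the 3 parental myeloma lines against ARH-77 WT, 3 of the 9 genes were called higher (10.3% of all tested genes) and 4 lower (11.9% of all tested genes). PRDM1 was higher by 3.39 ± 0.15 (log2-fold change ± SE, limma adjusted p = 2.29e-11), XBP1 by 1.52 ± 0.09 and BACH2 by 1.19 ± 0.11. PAX5 was lower with a log2-fold change of -5.26 ± 0.09, IRF8 with -4.76 ± 0.15, SPIB with -2.65 ± 0.13 and EBF1 with -1.25 ± 0.05, at limma adjusted p-values between 5.85e-16 and 1.45e-10. For IRF4 the difference was 0.23 with a 95% interval of -0.04 to 0.50, and for POU2AF1 0.04 with an interval of -0.26 to 0.34. These errors and intervals measure the spread of replicates, not the spread between lines, and ARH-77 is a single line. For IRF4 the single lines were at 0.52 (AMO1), 0.93 (L363) and -0.75 (RPMI-8226), all outside its interval. The calls of XBP1 and BACH2 leaned on L363: with the mean taken over AMO1 and RPMI-8226 alone their log2-fold changes were 0.76 and 0.97. The 2 genes were not alike in this. BACH2 was just under the threshold in each of these lines (0.99 in AMO1, 0.95 in RPMI-8226), whereas XBP1 was at -0.14 in AMO1 and 1.66 in RPMI-8226.

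**Figure D2:**
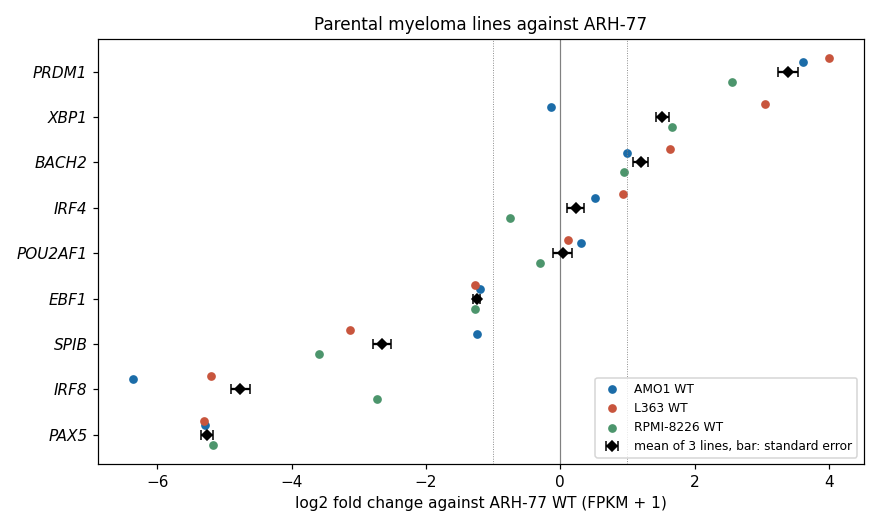
Log2-fold change of the 9 tested genes in parental myeloma cells against ARH-77 WT, on log2(FPKM + 1). Black diamonds are the mean of 3 lines with the standard error, coloured points the single lines, and dotted lines the threshold of 1 in either direction. PAX5 and EBF1 each differ by nearly the same amount in each line. Both stay at or under 0.14 FPKM in every myeloma library, so with 1 FPKM added these changes are set mostly by the ARH-77 level. XBP1 runs from -0.14 in AMO1 to 3.04 in L363 and IRF8 from -6.36 in AMO1 to -2.73 in RPMI-8226.

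The myeloma lines also differed from each other, and for these pairs the comparison was added after the data had been seen. Between L363 WT and AMO1 WT, 3 of the 9 genes were called (16.6% of all tested genes): XBP1 was higher in L363 by 3.18 ± 0.11, IRF8 by 1.16 ± 0.18, and SPIB lower with a log2-fold change of -1.88 ± 0.16. Between RPMI-8226 WT and AMO1 WT, 5 of the 9 genes were called (21.9% of all tested genes), with IRF8 (3.63 ± 0.18) and XBP1 (1.80 ± 0.11) higher in RPMI-8226 and SPIB (-2.35 ± 0.16), IRF4 (-1.27 ± 0.16) and PRDM1 (-1.06 ± 0.18) lower. Between L363 WT and RPMI-8226 WT, 4 were called, PRDM1, IRF4 and XBP1 higher in L363 and IRF8 lower, beside the same 21.9% of all tested genes. Parental AMO1 thus combined low XBP1 and near-absent IRF8 with the highest SPIB of the myeloma lines, and parental RPMI-8226 combined the lowest PRDM1 and IRF4 of the myeloma lines with the highest IRF8. Against ARH-77 WT one line at a time, 5 of the 9 genes were called in AMO1 (24.3% of all tested genes), 7 in L363 (25.2%) and 6 in RPMI-8226 (28.4%). PRDM1, PAX5, EBF1, SPIB and IRF8 were called in the same direction in each of the 3 lines, XBP1 in L363 and RPMI-8226, and BACH2 in L363. BACH2 lay just under the fold threshold in AMO1 (0.99) and RPMI-8226 (0.95).

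A pair of ratios restates these values in single libraries. They are no separate support, as IRF8, PRDM1 and PAX5 each lay apart between the 2 kinds of cell. The ratio of IRF4 to IRF8, related factors that compete for the same partners, was 0.963 to 1.32 in the 4 ARH-77 libraries and 4.89 to 2949 in the 16 libraries of the myeloma lines, with a median of 113. The upper end came from AMO1 WT replicate 2, where IRF8 was at 0.06 FPKM, near 0, and replicate 1 of the same group gave 840. PRDM1 less PAX5, on log2(FPKM + 1), was -4.95 to -3.69 in ARH-77 and 3.51 to 5.42 in the myeloma lines. The 2 kinds of cell did not overlap in either of these measures, in WT or resistant cells. They did overlap in the ratio of SPIB to IRF8, which was also computed. It was 0.331 to 0.465 in ARH-77 and 0.120 to 195 in the myeloma lines.

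In RPMI-8226 BtzR cells, POU2AF1 was almost lost. The WT libraries held it at 88.4 and 94.6 FPKM and the BtzR libraries at 1.77 and 2.50 FPKM, 2.33% of the WT mean, whereas no other group had a mean under 86.3 FPKM. The BtzR libraries were the lowest of all 20 for this gene. The mean was 42.8-fold lower and the log2-fold change -4.89 ± 0.17 (limma adjusted p = 5.22e-12). POU2AF1 was the one gene called among the 9 tested, with 0 called higher (5.91% of all tested genes) and 1 lower (7.92% of all tested genes).

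The plasma cell factors had higher values in the same BtzR cells, though under the fold threshold. PRDM1 was at 11.3 and 12.7 FPKM in WT and 21.4 and 15.9 FPKM in BtzR cells, IRF4 at 60.7 and 66.1 against 84.1 and 116 FPKM, and XBP1 at 246 and 248 against 341 and 327 FPKM, with no overlap. Their log2-fold changes of 0.58 ± 0.18, 0.64 ± 0.16 and 0.43 ± 0.11 had limma adjusted p-values of 0.0127, 0.00295 and 0.00394. IRF8 was at 12.04 and 13.5 FPKM in WT and 9.91 and 6.47 FPKM in BtzR cells, with a log2-fold change of -0.61 ± 0.18 and a limma adjusted p of 0.0106. None of these 4 reached the threshold of 1. An unadjusted limma p under 0.05 was found for 5 of the 9 genes and for 7712 of the 13089 tested genes. Shifts of this kind are thus not particular to these factors. PAX5 and EBF1 stayed at or under 0.14 FPKM and did not reappear, and SPIB and BACH2 gave log2-fold changes of -0.27 and 0.27 with adjusted p-values over 0.05. The summed plasma cell markers were 3147 to 3436 FPKM in the WT and 1214 to 1512 FPKM in the BtzR libraries, and their part in these results was not tested. In bulk RNA, fewer cells of a kind and less RNA per cell cannot be told apart.

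In AMO1 BtzR cells, POU2AF1 went in the opposite direction. It rose from 144 and 137 FPKM in WT to 279 and 322 FPKM in BtzR cells, 2.14-fold, the highest levels of the gene in any library, with a log2-fold change of 1.09 ± 0.17 (limma adjusted p = 1.08e-04). It was the 1 gene called higher of 9 tested (4.61% of all tested genes), with 0 lower (4.57% of all tested genes). The call lay near the fold threshold, and without AMO1 BtzR replicate 2 the log2-fold change was 0.99 and the count of called genes 0. PRDM1 was at 22.5 and 30.2 FPKM in WT and 36.9 and 38.8 FPKM in BtzR cells, with a log2-fold change of 0.52 ± 0.18 and a limma adjusted p of 0.0244. IRF4 was at 134 and 177 FPKM in WT and 106 and 131 FPKM in BtzR cells, and its log2-fold change of -0.38 ± 0.16 did not pass the test (limma adjusted p = 0.0523). XBP1 stayed at the low level of its parent, at 72.8 and 73.1 FPKM, a difference of 0.05 with a 95% interval of -0.18 to 0.29. SPIB, at 12.5 and 12.4 FPKM, overlapped its WT libraries. BACH2 was at 1.03 and 1.01 FPKM in WT and at 0.51 and 0.69 FPKM in BtzR cells, without overlap but at a limma adjusted p of 0.0547. IRF8 stayed at or under 0.32 FPKM. An unadjusted limma p under 0.05 was found for 4 of the 9 genes and for 7335 of the 13089 tested genes. Beside these values, the summed plasma cell markers were 6685 to 8200 FPKM in the WT and 4594 to 5100 FPKM in the BtzR libraries, and the 5 B-cell markers 52.8 to 54.1 and 26.2 to 26.5 FPKM. The 3 T-cell markers in the table summed to 8.38 to 12.8 FPKM in WT and 1.36 to 1.99 FPKM in BtzR cells, with CD3D listed at 0 in both and CD3E called lower (-2.33). The part of these shifts in the results was not tested.

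In L363 and ARH-77 no gene of the 10 was called under resistance. In L363 BtzR, 0 of 9 were called by limma, beside 1.02% higher and 1.05% lower of all tested genes, and 1 had an unadjusted p under 0.05. In L363 CfzR, 0 were called, beside 1.11% higher and 0.825% lower, and 2 had an unadjusted p under 0.05. In ARH-77 BtzR, 0 were called, beside 0.955% higher and 0.649% lower, and 3 had an unadjusted p under 0.05. Of all 13089 tested genes, 3080 in L363 BtzR, 2457 in L363 CfzR and 3494 in ARH-77 BtzR had an unadjusted limma p under 0.05. The counts of 1, 2 and 3 are thus not particular to these factors. No other tool was run, as the tools for read counts cannot be used on FPKM. The L363 levels were held within a narrow band: XBP1 was at 733 and 664 FPKM in BtzR and 683 and 615 FPKM in CfzR cells, IRF4 at 212 and 244 FPKM and at 208 and 242 FPKM, and PRDM1 at 37.3 and 37.8 FPKM and at 41.9 and 37.5 FPKM. For XBP1 the 95% interval of the log2 difference from L363 WT was -0.13 to 0.35 in BtzR and -0.23 to 0.24 in CfzR cells. BACH2 was at 2.42 and 3.05 FPKM in L363 BtzR and at 2.46 and 3.16 FPKM in L363 CfzR cells, each time above both WT libraries (1.99 and 2.34 FPKM), with limma adjusted p-values of 0.347 and 0.346. POU2AF1 was at 90.3 and 97.9 FPKM in L363 BtzR cells, with a log2-fold change of -0.38 ± 0.17 and a limma adjusted p of 0.197.

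In L363 CfzR cells SPIB was at 4.26 and 5.74 FPKM, against 3.11 and 2.43 FPKM in WT, a 1.81-fold higher mean. Its log2-fold change of 0.67 ± 0.16 had a limma adjusted p of 0.0184 and stayed under the fold threshold. IRF8 was at 2.15 and 3.38 FPKM in the same cells, a 1.86-fold higher mean than in WT, with a log2-fold change of 0.58 ± 0.18 and a limma adjusted p of 0.0661. In ARH-77 BtzR cells PAX5 was at 42.6 and 47.1 FPKM, IRF8 at 90.6 and 86.3 FPKM and SPIB at 38.0 and 40.1 FPKM, and the first 2 overlapped their WT libraries. IRF4 was at 87.2 and 94.8 FPKM, XBP1 at 101.7 and 86.7 FPKM and POU2AF1 at 84.0 and 112 FPKM there, with log2-fold changes of -0.24, 0.27 and -0.22 and limma adjusted p-values of 0.368, 0.125 and 0.464. EBF1 was at 1.42 FPKM in both WT libraries and at 2.2 and 1.99 FPKM in BtzR cells, under the fold threshold, with a log2-fold change of 0.35 ± 0.06 and a limma adjusted p of 7.78e-04. PRDM1, already low, was at 0.41 and 0.66 FPKM, and its log2-fold change of -0.53 ± 0.18 had a limma adjusted p of 0.0652. Because adding 1 FPKM compresses the change of low genes, a smaller added constant of 0.1 FPKM gave -1.04 for PRDM1, which then passed both thresholds and made the count of called genes 1.

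The dependence of the bortezomib effect on the line was itself tested, with a moderated F test over the interaction terms in limma. The effect differed for 5 of the 9 genes (55.6%), beside 71.1% of all tested genes, so that a share of this size is not particular to these factors. The log2-fold changes of POU2AF1 ran from 1.09 (AMO1) through -0.22 (ARH-77) and -0.38 (L363) to -4.89 (RPMI-8226). IRF4 ran from -0.38 in AMO1 to 0.64 in RPMI-8226 and PRDM1 from -0.53 in ARH-77 to 0.58 in RPMI-8226. XBP1, PAX5, SPIB and IRF8 did not pass the F test.

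**Figure D3:**
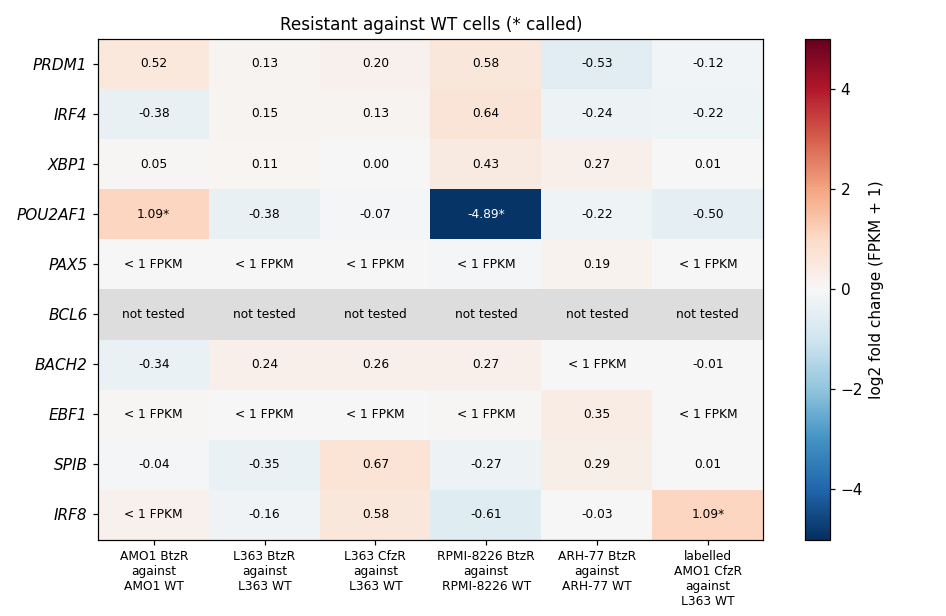
Log2-fold change, on log2(FPKM + 1), of each gene (rows) in each comparison of resistant with WT cells (columns), with the libraries labelled AMO1 CfzR set against L363 WT. Stars mark called genes, and cells marked < 1 FPKM hold genes whose mean stays below 1 FPKM on both sides. The 2 large values in lines that match their labels are both of POU2AF1, 1.09 in AMO1 BtzR and -4.89 in RPMI-8226 BtzR.

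The libraries labelled AMO1 CfzR were compared with both parental lines. Against AMO1 WT, 2 genes were called higher (7.88% of all tested genes) and 1 lower (9.21% of all tested genes). XBP1 was at 682 and 624 FPKM in these libraries against 63.2 and 78.3 FPKM in AMO1 WT, a log2-fold change of 3.20 ± 0.11. IRF8 was at 3.80 and 4.81 FPKM against 0.16 and 0.06 FPKM (2.25 ± 0.18), and SPIB at 2.39 and 3.23 FPKM against 14.1 and 11.7 FPKM (-1.87 ± 0.16). L363 WT had been set against the same AMO1 WT libraries, with 3.18 for XBP1, 1.16 for IRF8 and -1.88 for SPIB. Against L363 WT, 1 gene was called higher (0.856% of all tested genes) and 0 lower (0.802% of all tested genes). That gene was IRF8, with a log2-fold change of 1.09 ± 0.18 and a limma adjusted p of 1.10e-03, and without replicate 2 of these libraries it was 0.95 and not called. XBP1 and SPIB differed from L363 WT by 0.01 each, with 95% intervals of -0.22 to 0.25 and -0.34 to 0.36. Line and drug cannot be told apart in the comparison with AMO1 WT. Both comparisons rest on the same 2 libraries, and AMO1 WT and L363 WT also serve the other comparisons of their lines.

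POU2AF1 was then set beside the genes that neighbour it on the chromosome, in RefSeq order, in RPMI-8226. Of the 8 genes on each side, 8 reached a mean of 1 FPKM in WT or BtzR cells, and 6 of these had a lower mean in BtzR cells. Over all tested genes the median log2-fold change in RPMI-8226 BtzR cells was 0.05, and 7.92% were called lower. Whether the neighbours differ from this background was not tested. The BtzR means of the 8 neighbours that reached 1 FPKM were 58.1% to 614% of WT with a median of 76.7%, against the 2.33% of POU2AF1. The expressed genes on the side of SIK2 (SIK2, PPP2R1B, ALG9, FDXACB1 and CFAP68) were at 58.1% to 79.2% of WT, and on the other side RDX was at 101%, FDX1 at 87.8% and ZC3H12C, low in both, at 614%. The genes nearest to POU2AF1, 3 on each side, stayed below 1 FPKM in all 4 of these libraries, and each had a lower mean in BtzR cells, given here without a test. POU2AF2, POU2AF3 and BTG4 were listed at 0 in both BtzR libraries, against WT means of 0.025, 0.175 and 0.54 FPKM. LAYN went from 0.68 and 0.71 FPKM to 0.15 and 0.19 FPKM (24.5% of WT), HOATZ from 0.27 and 0.23 FPKM to 0 and 0.13 FPKM (26%) and COLCA1 from 0.72 and 0.58 FPKM to 0.36 and 0.47 FPKM (63.8%). RefSeq order was used for names and neighbours alone, as the build of the deposited values is not given in the sources used here.

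**Figure D4:**
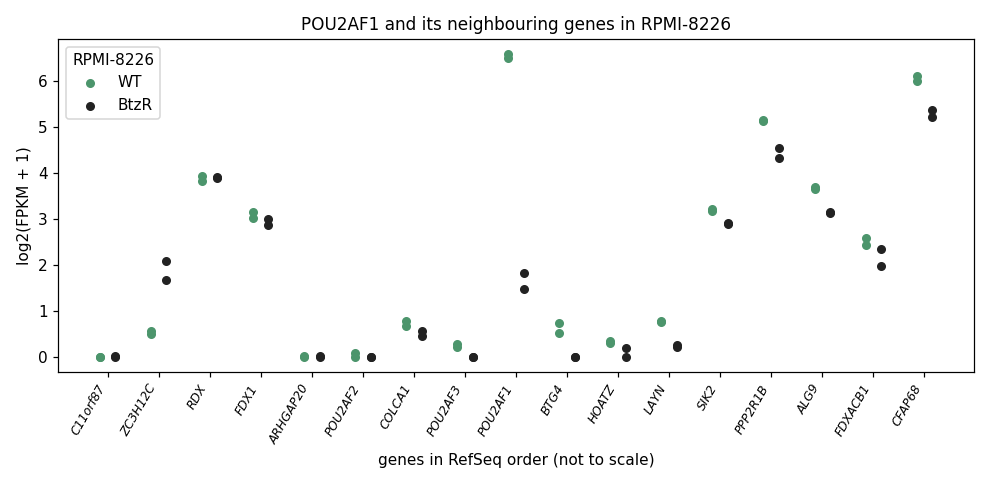
Level as log2(FPKM + 1) of POU2AF1 and of the 8 genes on each side, in RefSeq order and not to scale, in RPMI-8226 WT (green) and BtzR (black) libraries, 2 points each. POU2AF1 goes from 88.4 and 94.6 FPKM to 1.77 and 2.50 FPKM, while the neighbours that reach a mean of 1 FPKM keep 58.1% of their WT mean or more. The 3 nearest genes on each side lie below 1 FPKM in both and have lower BtzR means, from 0% of WT (POU2AF2, POU2AF3, BTG4) to 63.8% (COLCA1).

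Lists of the B-cell programme, plasma cell identity and XBP1 targets were followed, and lists of partner factors, other IRF genes and germinal centre genes. Whether the 10 factors govern the listed genes in these cells was not tested. In the mean of the 3 parental myeloma lines against ARH-77 WT, 10.3% of all tested genes were called higher and 11.9% lower. Of the B-cell programme, 13 of 13 genes were called lower in this mean, with a median log2-fold change of -3.79 against -0.04 over all tested genes. The 3 largest differences were those of CD22 (-7.42), CD79A (-6.63), a chain of the B-cell receptor, and MS4A1 (-5.89), which encodes CD20. Single lines did not all follow the mean. CD79B was at 51.9 FPKM in AMO1 WT, above the 36.3 FPKM of ARH-77 WT. CD72 was at 5.28 and 3.73 FPKM in RPMI-8226 WT, which overlapped the 3.54 and 6.23 FPKM of ARH-77 WT. Of 12 plasma cell identity genes, 9 were called higher and 0 lower, with a median of 2.70, led by JCHAIN (9.41), SDC1 (5.12) and TXNDC5 (5.04). The B-cell programme and plasma cell identity lists hold all 5 B-cell markers and all 6 plasma cell markers used above to check the cell types. They are thus no separate support for that check. Of 15 XBP1 targets, 5 were called higher and 0 lower, with a median of 0.59. They were DERL3 (2.61) and HERPUD1 (2.31) of ER-associated degradation, FKBP11 (1.81), the translocon-associated SSR4 (1.53) and the protein disulphide isomerase PDIA6 (1.35). Of 18 tested partner factors 2 were called higher, KLF2 (3.32) and BACH1 (1.03), and 6 lower, led by BATF (-4.03), ETS1 (-3.40) and POU2F2 (-2.07), with a median of -0.20. The lines differed for some of these. POU2F2 was at 18.83 FPKM in AMO1 WT, above the 16.96 FPKM of ARH-77 WT. ETS1 was at 35.9 FPKM in L363 WT but at 0.46 FPKM in AMO1 WT and 2.21 FPKM in RPMI-8226 WT. KLF2 was at 59.9 FPKM in AMO1 WT, 9.8 FPKM in L363 WT and 9.41 FPKM in RPMI-8226 WT. IRF5 (-1.62) and IRF1 (-1.33) were lower among 6 tested IRF genes, with a median of -0.43. The 9 tested germinal centre genes went both ways, with a median of -0.61: STAP1 (-2.65), ELL3 (-2.54), MEF2B (-2.10) and BCL7A (-1.71) were lower, and MME (1.02) and RGS13 higher. RGS13 was listed at 0 in both ARH-77 WT libraries, at 7.42 and 8.84 FPKM in RPMI-8226 WT and at no more than 0.07 FPKM in the other WT libraries.

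In parental AMO1, where XBP1 was low, its targets were not low as a group: 9 of the 15 had a higher mean in AMO1 WT than in L363 WT and 6 a lower one. As examples chosen after their values were seen, FKBP11 was at 231 and 233 FPKM in AMO1 WT against 203 and 179 FPKM in L363 WT, and DERL3 at 102 FPKM in both AMO1 WT libraries against 21.4 and 17.6 FPKM in L363 WT. In the other direction, SSR4 was at 204 and 203 FPKM in AMO1 WT against 431 and 343 FPKM in L363 WT, and SDF2L1 at 40.1 and 39.3 against 60.6 and 55.0 FPKM. These differences were not tested.

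In RPMI-8226 BtzR cells, where POU2AF1 was lost, genes on both sides were lower, beside 7.92% of all tested genes called lower and 5.91% higher. Of the 13 B-cell programme genes 6 fell and 0 rose, with a median log2-fold change of -0.77 against 0.05 over all tested genes. They were BLK (-3.83), a B-cell kinase that went from 17.2 and 18.5 FPKM to 0.25 and 0.40 FPKM, FCER2 (-3.19), CR2 (-2.67), CD79B (-1.72), FCRLA (-1.49) and CIITA (-1.39). Of the 12 plasma cell identity genes 5 fell and 0 rose, with a median of -0.655. CD38 went from 45.6 and 56.7 FPKM to 2.43 and 3.02 FPKM (-3.80), TNFRSF17, which encodes BCMA, from 94.0 and 98.1 FPKM to 7.86 and 4.93 FPKM (-3.74), and GPRC5D (-1.92), ELL2 (-1.52) and JCHAIN (-1.37) fell by less. Of the 15 XBP1 targets 4 fell and 0 rose, with a median of -0.73, while XBP1 itself had a log2-fold change of 0.43. They were DERL3 (-3.89), FKBP11 (-1.58), HERPUD1 (-1.45) and SEC24D (-1.204).

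Among 18 tested partner factors in RPMI-8226 BtzR cells, 3 fell and 1 rose, beside the 13.8% of all tested genes called in either direction. SPI1, which encodes PU.1, the ETS factor that pairs with IRF4 and IRF8, went from 20.3 and 22.5 FPKM to 0.24 and 0.08 FPKM (-4.27 ± 0.09, limma adjusted p = 2.26e-14). BATF (-1.57) and KLF2 (-1.37) fell, and ETS1 rose from 2.2 and 2.22 FPKM to 17.4 and 12.8 FPKM (2.31 ± 0.19). Of the octamer-binding partners of POU2AF1, POU2F1 was at 3.84 and 4.42 FPKM in WT and 4.36 and 4.78 FPKM in BtzR cells, and POU2F2 was under 1 FPKM in both. IRF5 (-2.20) and IRF7 (-1.02) fell among 6 tested IRF genes. Of 9 tested germinal centre genes, RGS13 fell from 7.42 and 8.84 FPKM in WT to a listed 0 in each BtzR library, and MME (2.14) and BCL7A (1.84) rose.

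In AMO1 BtzR cells, where POU2AF1 rose, its octamer-binding partner POU2F2 fell from 19.4 and 18.3 FPKM to 0.85 and 0.92 FPKM (-3.39 ± 0.15, limma adjusted p = 2.71e-10), while POU2F1 was at 5.97 and 5.05 FPKM in WT and 4.70 and 4.66 FPKM in BtzR cells. The coactivator and this partner thus moved in opposite directions. Over the 6 lists 7 of 73 tested genes rose and 17 fell, beside 4.61% and 4.57% of all tested genes. BATF (-1.72) and KLF2 (-1.19) also fell, and ETS1 (3.09) and ID2 (1.201) rose. Of the B-cell programme 2 genes rose and 3 fell, with a median of 0 against -0.0017 over all tested genes. CIITA, the master regulator of HLA class II genes, rose from 9.17 and 6.48 FPKM to 98.6 and 96.1 FPKM (3.49 ± 0.18), above both ARH-77 WT libraries, and BLNK rose (1.16), whereas FCER2 (-1.76), FCRLA (-1.19) and CD79B (-1.06) fell. Of the plasma cell identity genes 6 fell and 0 rose, with a median of -0.74: GPRC5D (-3.47), FCRL5 (-2.63), CAV1 (-1.73), TXNDC5 (-1.38), SDC1 (-1.22) and CD38 (-1.04). Of the XBP1 targets 4 fell and 0 rose, with a median of -0.93, namely FKBP11 (-2.37), HYOU1 (-1.18), DNAJB9 (-1.02) and PDIA6 (-1.02), at an XBP1 level that overlapped the parental one. IRF9 (1.62), MYBL1 (1.23) and MME (1.35) rose and IRF5 fell (-1.204).

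**Figure D5:**
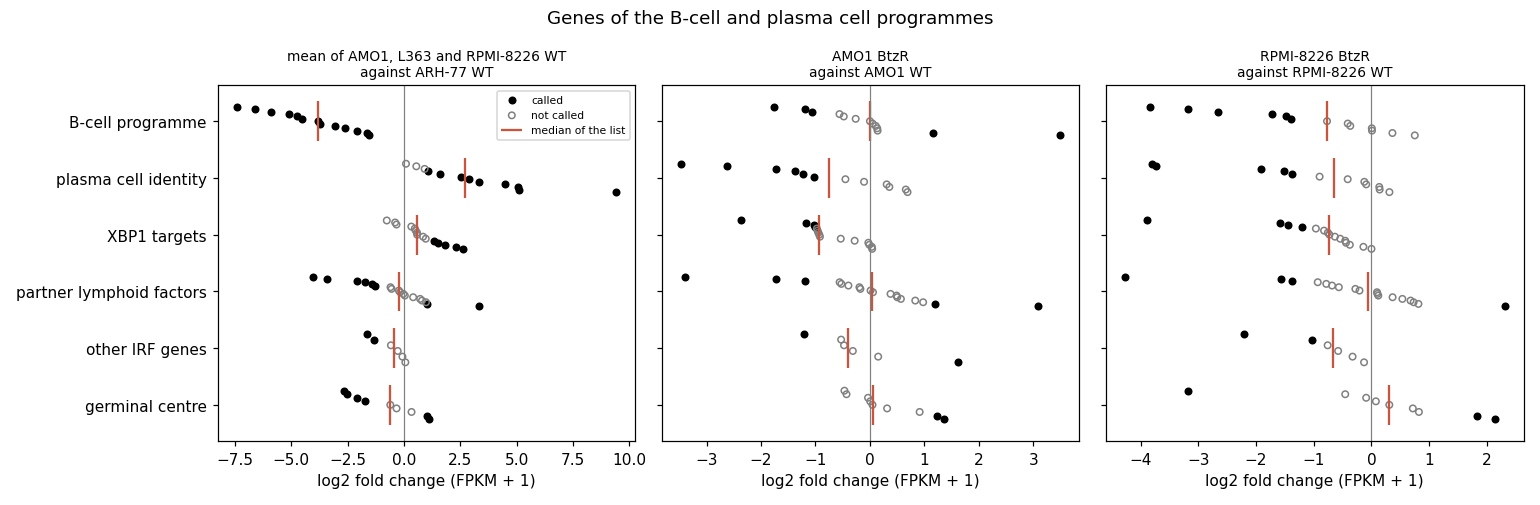
Log2-fold change, on log2(FPKM + 1), of the tested genes of 6 lists in 3 comparisons. Filled points are called genes, open points genes not called, and red bars the median of the list. The B-cell programme lies wholly below 0 in the mean of the parental myeloma lines against ARH-77 (median -3.79), though not in each line. The called plasma cell identity and XBP1 target genes lie below 0 in both AMO1 BtzR and RPMI-8226 BtzR cells.

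In L363 and ARH-77 the 73 tested genes of the 6 lists gave few calls, as did all genes: 3 (4.11%) in L363 BtzR beside 2.06% of all tested genes, 2 (2.74%) in L363 CfzR beside 1.93%, and 3 (4.11%) in ARH-77 BtzR beside 1.6%. In L363 BtzR cells CD79B rose (1.01) and GPRC5D (-1.11) and KLF2 (-2.30) fell, in L363 CfzR cells MME rose (1.65) and CIITA fell (-1.13), and in ARH-77 BtzR cells FCER2 rose (1.06) and CD38 (-1.46) and CAV1 (-1.10) fell. The median log2-fold change of the XBP1 targets lay between -0.14 and 0.10 in these 3 comparisons. In the libraries labelled AMO1 CfzR, 3 of the 73 genes were called against L363 WT (4.11%, beside 1.66% of all tested genes), BLNK (1.73) and CD79B (1.41) higher and KLF2 (-1.90) lower, and 24 against AMO1 WT (32.9%, beside 17.1%).

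The 10 group means of log2(FPKM + 1) were last compared between genes, as a description over 10 groups that share lines and libraries. PAX5 and EBF1 had nearly the same profile (Pearson r = 0.99), and PRDM1 ran opposite to both (-0.96 and -0.95). BACH2 went with the plasma cell factors PRDM1 (0.85) and XBP1 (0.88) and against PAX5 (-0.82), and POU2AF1 had no r beyond 0.45 with any other of the genes. The values of PAX5 and EBF1 rest mostly on the step between ARH-77 and the myeloma lines. XBP1 and BACH2 were both highest in the L363 groups and the libraries labelled AMO1 CfzR. The profile of POU2AF1 rests mostly on its low level in RPMI-8226 BtzR cells. Among the 5557 tested genes that varied between groups, the profile nearest to POU2AF1 was that of HSD17B7 (0.98), before PPP1R7 and TRMT12. UBE2E2, ATP8B2 and PTCH1 came nearest to PRDM1, CHD7, ECHS1 and TUBGCP2 to IRF4, and ZNF558, ADM and ADGRA3 to XBP1. SLFN11, HMSD and LILRA3 came nearest to PAX5, NKG7, NGFR and OXER1 to EBF1, DPY19L1, NOMO1 and NBPF1 to BACH2, BCAS4, MTMR14 and ID3 to SPIB, and RASSF4, SMTN and CTSZ to IRF8, with r from 0.96 upwards in each case.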

How the data were processed

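BGI extracted the RNA, built the libraries and sequenced them on its BGISEQ-500 instrument. The authors deposited FPKM values for 18305 genes, and the submitters' processing notes name HISAT2 2.0.4, Bowtie2 2.2.5 and RSEM 1.2.12. The build and any scaling between libraries are not given in the sources used here. FPKM values were compared as log2(FPKM + 1) with limma 3.58.1 in R 4.3.3, with 1 mean for each of the 10 groups, a variance trend, 10 residual degrees of freedom and Benjamini-Hochberg adjustment over 13089 genes (those whose mean reached 1 FPKM in some group). Replicates are biological, and the spread of 2 libraries, pooled over groups, is the only measure of error. No column was left unmapped. In data simulated from AMO1 WT and BtzR (12969 genes), 199, 200 and 200 of 200 genes changed by log2 1.5, 2 and 3 were called, with 0 false calls. These changes all lay above the threshold of 1. They therefore do not bear on calls near it, such as that of POU2AF1 in AMO1 BtzR cells (1.09). The genes, taken by name, and the lists were proposed with earlier results of these data known. A list gene is left out of the lists and marker sums and is not reported here. In the comparisons described list by list, all called genes of a list were named where they numbered 6 or fewer, otherwise the 3 largest in each direction. For likeness, the 3 genes with the highest r were named, among genes whose group means had an SD of at least 0.5. Alternatives were other pseudocounts, filters, scalings, variance models, a replicate block, smaller fits and leaving out libraries. Figures and sequences were handled in Python 3.11.15 (pandas 2.3.3, numpy 2.4.6, matplotlib 3.10.9).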

Additional observations from a re-analysis of the deposited data

Results flagged for a closer look

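For 5 of the 9 tested genes the 4 lines differed in their response to bortezomib resistance by limma's moderated F test, with Benjamini-Hochberg adjustment over all tested genes. POU2AF1 had an adjusted p of 1.97e-10 (limma), with 1 called rise, in AMO1, and 1 called fall, in RPMI-8226, both seen in 2 of 2 BtzR libraries. The limma adjusted p was 0.0035 for IRF4 (log2-fold changes from -0.38 in AMO1 to 0.64 in RPMI-8226) and 0.00422 for PRDM1 (from -0.53 in ARH-77 to 0.58 in RPMI-8226). For EBF1 it was 0.00603 by limma, with 0.35 in ARH-77 and values of at most 0.06 in lines where its mean stayed below 1 FPKM. For BACH2 it was 0.0396 by limma, with -0.34 in AMO1, 0.24 in L363 and 0.27 in RPMI-8226. As 71.1% of all tested genes passed this test, passing it sets none of these genes apart.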

How the results depend on the processing

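Across the alternatives, 135 of 143 counts of called genes stayed within 1.5 times the value reported, and 821 of 852 log2-fold changes of single genes kept their direction and their side of the threshold. The pseudocount mattered most. With 0.1 or 0.01 FPKM in place of 1, the count in ARH-77 BtzR was 1 (PRDM1, -1.04 or -1.16), and with 0.01 FPKM it was 2 in AMO1 BtzR, 2 in RPMI-8226 BtzR and 6 in the libraries labelled AMO1 CfzR against AMO1 WT. Leaving out 1 library gave counts of 0 to 1 in AMO1 BtzR, 0 to 1 in the libraries labelled AMO1 CfzR against L363 WT, and 4 to 8 for the F test, where 8 came without ARH-77 WT replicate 1. The cause was not tested.

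Reversals touched small differences that no test had called. POU2AF1 in parental myeloma against ARH-77 was -0.013 after TPM rescaling, -0.020 after quantile normalization and -0.097 without AMO1, and IRF4 was -0.12 without L363. Quantile normalization gave 0.0047 for IRF8 in ARH-77 BtzR and -0.020 for XBP1 in the libraries labelled AMO1 CfzR against L363 WT. Leaving out 1 library gave ranges across 0 for XBP1 (-0.10 to 0.21) and SPIB in AMO1 BtzR (-0.17 to 0.086), XBP1 in L363 CfzR (-0.097 to 0.10), IRF8 (-0.19 to 0.13), POU2AF1 (-0.54 to 0.092) and PAX5 (-0.019 to 0.41) in ARH-77 BtzR, POU2AF1 in parental myeloma against ARH-77 (-0.28 to 0.35), IRF4 in the libraries labelled AMO1 CfzR against AMO1 WT (-0.0070 to 0.39), and PRDM1 (-0.25 to 0.0055), XBP1 (-0.087 to 0.11), BACH2 (-0.099 to 0.084) and SPIB (-0.15 to 0.17) in those libraries against L363 WT.

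The labels give groups the same replicate numbers without saying that these mark a shared batch, and the r between the deviations of same-numbered libraries was -0.0055 in AMO1 BtzR and 0.12 to 0.25 in the other 6 comparisons of resistant with WT cells, so the numbers were not taken as a pairing; a shared batch in some lines was not tested. With the replicate number as a block, POU2AF1 had log2-fold changes of 1.09 in AMO1 BtzR and -4.89 in RPMI-8226 BtzR, and each count of called genes was the one reported. Precision is limited by 2 libraries per group and by the unknown depth.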
